A study of Mus musculus with 12 samples.

Results

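The comparison described here sets mouse kidney tubuloids exposed to myoglobin and dexamethasone together against tubuloids given vehicle, and asks what of the vehicle state was not restored when the glucocorticoid was present. Tubuloids are small hollow structures that renal tubular epithelial cells form in culture; these were primary cultures from the kidney cortex of wildtype mice, 4 in all, grown in Matrigel. Animal age, sex and strain are not given in the sources used here. All groups shared the genotype, the culture and the 12 h exposure. The vehicle group (veh) received neither agent, the second group (myo) received myoglobin, and the third group (myo-dex) received myoglobin with 100 nM dexamethasone. Each had 4 libraries, so that 8 of the 12 libraries enter the comparison itself and the 4 myo libraries stand beside it. None of the libraries analysed here had dexamethasone without myoglobin, so an effect of the steroid that depends on myoglobin and one that does not cannot be told apart. Of 20819 genes in the table, 14558 were tested, namely those that reached a value of 10 in 4 or more of the 12 libraries.

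Myoglobin is the haem protein of muscle, which reaches the tubule in large amounts after muscle breakdown. Free haem is degraded by haem oxygenase, and haem and the oxidants it forms release the transcription factor NRF2 to switch on antioxidant genes; injured tubular cells also produce cytokines under the control of NF-kB. Dexamethasone binds the glucocorticoid receptor, which switches on genes such as Fkbp5 and Per1 and in many cells lowers transcription of NF-kB targets. In the distal nephron, the aldosterone-sensitive segment that fine-tunes salt excretion, the enzyme made from Hsd11b2 inactivates endogenous glucocorticoids; dexamethasone is a poorer substrate.

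Promoters were searched for the 2 genes in each direction with the smallest p between myo-dex and veh, among always-named genes with a promoter entry. These were Tnf and Ccl20 for rises and Tgfbi and Atf3 for falls. The pair for rises, both inflammatory genes that were high in both groups that received myoglobin, is shown. Each sequence is the 250 bases before the RefSeq gene start on the strand of the gene, from RefSeq's GRCm38.p6 table, at chr17:35202008-35202257 on the minus strand for Tnf and chr1:83116516-83116765 on the plus strand for Ccl20. Capitals mark a match to a searched motif.
Tnf: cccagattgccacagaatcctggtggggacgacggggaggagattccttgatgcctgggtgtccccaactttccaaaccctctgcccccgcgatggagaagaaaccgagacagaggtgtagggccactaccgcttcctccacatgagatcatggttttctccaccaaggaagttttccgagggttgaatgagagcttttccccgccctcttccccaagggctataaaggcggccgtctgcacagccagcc
Ccl20: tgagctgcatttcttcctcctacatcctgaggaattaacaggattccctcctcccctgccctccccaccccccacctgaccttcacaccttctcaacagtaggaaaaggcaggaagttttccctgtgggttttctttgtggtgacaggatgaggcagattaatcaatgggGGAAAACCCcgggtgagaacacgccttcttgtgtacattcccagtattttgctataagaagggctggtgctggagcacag
The motifs, searched on both strands, were GGNNTTTCC for NF-kB (kappa-B type), ACANNNTGT for the core of a glucocorticoid response element, TGACNNNGC for the core of an antioxidant response element, and TTTGGCGC, TTTCCCGC, TTTGCCGC and TTTCGCGC for E2F. Ccl20 held 1 kappa-B type match, GGAAAACCC, 80 to 72 bases before the start, and Tnf, Tgfbi and Atf3 held none of the letters searched. Other forms of these sites, and bases beyond the 250, were not searched, so a blank does not show that a gene lacks such sites. Of 32851 promoters in the table, 4.93% held the kappa-B type letters, 5.84% the glucocorticoid core, 10.16% the antioxidant core and 1.86% an E2F type match.

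The values are normalised read numbers per gene, which the authors had scaled to the depth of each library. Estimated reads in genes were 5.5 to 5.87 M in the vehicle libraries, 5.28 to 5.92 M in the myo libraries and 3.25 to 5.53 M in the myo-dex libraries. The library with 3.25 M, myo-dex replicate 4, stood apart: it listed 2179 genes at 0, where the remaining 11 libraries listed 1051 to 1544, and relative to its group its values ran low for genes below 100 (median -0.17 on the log2 scale) and high for genes at or above 1000 (median 0.16). Counts below are therefore also given without it where they changed by over 1.5 times. The tubular epithelium markers were present, all 8 of them, with a summed level of 8284 to 8602 with vehicle and 8480 to 11329 with both agents, the highest in replicate 4. Of 40 proximal tubule genes 19 did not reach the level for testing or are not in the table used here, among them Cubn, Slc34a1 and Slc5a2, which define that segment. Endothelial markers summed to 136 to 147 with vehicle and 98 to 116 with both agents, with 6 of 9 below 10 in every library, and podocyte markers to 834 to 1221 and 738 to 879. Immune markers summed to 768 to 905 and 894 to 1025, mostly from Ptprc and Cd74, and did not move together. Cd74 was higher with both agents (164 to 212 with vehicle, 360 to 394 with both). Ptprc overlapped (401 to 484 and 408 to 444), and Cd68 was lower (80 to 116 and 62 to 77). Fibroblast and stroma markers summed to 438 to 523 with vehicle, 327 to 372 with myoglobin and 192 to 293 with both agents. Rgs5 alone was the largest part of these sums (236 to 305, 159 to 191 and 93 to 155). Of 9 tested stroma markers 5 fell with both agents and 2 with myoglobin, and 0 rose in either, so the sum does not speak for each marker. In bulk samples such as these, fewer cells of a type and less RNA per cell cannot be told apart.

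With both agents, 4161 of the 14558 genes differed from vehicle (28.6%), 2029 of them higher (13.9%) and 2132 lower (14.6%), at a limma adjusted p below 0.05. Rescaling the libraries to equal totals gave 1565 higher and 2648 lower, and scaling to the median gene ratio gave 1624 higher and 2563 lower, so the balance of directions rests on the scaling. A change of at least 2-fold was reached by 493 genes (3.39%), 187 higher (1.28%) and 306 lower (2.1%). The other 2 comparisons share libraries with it and are given beside it. In myo against veh 2669 genes passed (18.3%), with 8.71% of all tested genes higher and 9.62% lower, and 403 changed by at least 2-fold (2.77%; 1.34% higher and 1.43% lower). In myo-dex against myo, the direct test of dexamethasone in the presence of myoglobin, 1016 passed (6.98%), with 3.08% higher and 3.9% lower, and 58 changed by at least 2-fold (0.398%; 0.24% higher and 0.158% lower). That count of 1016 moved with the settings: it was 551 without myo replicate 4, 617 without myo replicate 2, 639 in a fit of only these 2 groups and 1788 when blocked on replicate number. The labels do not tie the libraries to separate mice, so p-values measure the spread between these samples, which may be technical. Same-numbered veh and myo libraries also deviated together, as given below, and the reported fit does not use this. Blocked on replicate number, 5272 genes passed for myo-dex against veh. A gene is said to have risen or fallen where it passed at that threshold. List counts against vehicle below are to be read beside the 13.9% higher and 14.6% lower of all tested genes.

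**Figure D1:**
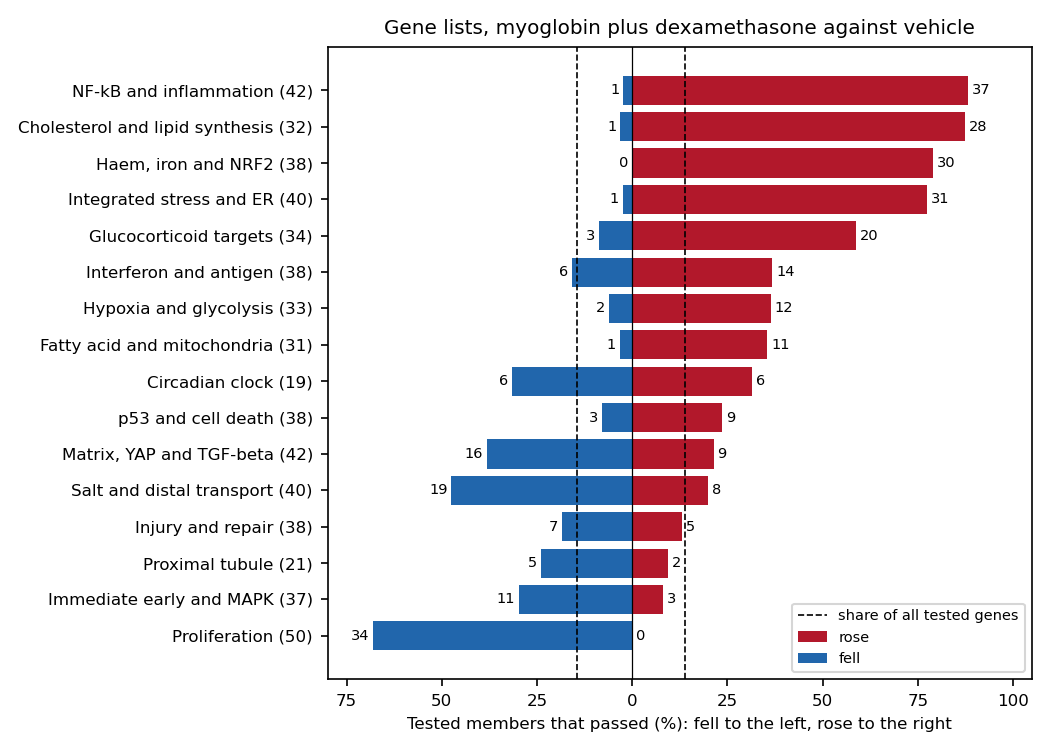
Bars give, for each gene list, the percentage of its tested members that rose or fell with myoglobin plus dexamethasone against vehicle (limma adjusted p below 0.05), and the dashed lines the same shares of all tested genes. Most lists pass the 13.9% line for rises, and the cholesterol, NF-kB, haem and stress-response lists reach farthest past it. Proliferation and distal transport reach farthest past the 14.6% line for falls, which several other lists also pass.

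Most haem and antioxidant genes lay above vehicle level with both agents. Of 38 tested members, 30 rose and 0 fell against vehicle, with a median of 0.37 against 0.0017 over all tested genes. In myo against veh 19 rose and 0 fell, and in myo-dex against myo 2 rose and 0 fell. Some of the 30 thus passed only with both agents, and 30 is not a count of genes that myoglobin raised and dexamethasone left high. Hmox1, which encodes the inducible haem oxygenase (ENSMUSG00000005413, mm10 chromosome 8, 75093621 to 75100589), had vehicle values of 110, 113, 124 and 106, myo values of 475, 446, 468 and 451, and myo-dex values of 476, 453, 510 and 540. No myo-dex library came near the vehicle range, and the myo and myo-dex ranges overlapped. The mean went from 113 ± 7.72 to 495 ± 38.2 (SD, n = 4), a log2 change of 2.12 ± 0.0621 (limma adjusted p = 3.75e-12), and the difference between myo-dex and myo was 0.10 ± 0.0621 (adjusted p = 0.352).

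Among the others, Slc7a11, the cystine importer that feeds glutathione synthesis, had 312, 346, 434 and 402 with vehicle and 789, 767, 869 and 786 with both agents (1.11 ± 0.101, limma adjusted p = 9.96e-07). Nqo1, a quinone reductase and standard NRF2 target, rose by 1.04 ± 0.133, and Slc11a2, the divalent metal transporter, by 0.56 ± 0.033. Gclm, the modifier subunit of the enzyme that starts glutathione synthesis, rose by 0.69 ± 0.0583. Its catalytic partner Gclc and Cat, the catalase gene, were the 2 members that differed from myo: Gclc had 1003 to 1151 with myoglobin and 1183 to 1372 with both agents (0.26 ± 0.0574, adjusted p = 0.0116), and Cat 610 to 661 and 678 to 814 (0.21 ± 0.0511, adjusted p = 0.023). The group means of both were highest with both agents, and the Cat range touched that of vehicle (640 to 678). The Cat call against myo was lost under 8 of the 28 alternatives and its call against vehicle under 16, and the Gclc call against myo under 1.

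Inflammatory genes under NF-kB stayed high. Of 42 tested members 37 rose and 1 fell against vehicle (median 0.81), and 36 rose and 1 fell in myo against veh; against myo, 1 was higher and 3 were lower in myo-dex. Tnf, the cytokine (ENSMUSG00000024401, chromosome 17, 35199381 to 35202007), had 182, 187, 177 and 177 with vehicle, 454, 452, 469 and 463 with myoglobin, and 415, 438, 425 and 440 with both agents. All myo-dex values lay between 415 and 440, below the lowest myo value, and the difference from myo, -0.10 ± 0.0419, did not pass (adjusted p = 0.188); the change from vehicle was 1.24 ± 0.0419 (limma adjusted p = 1.29e-11).

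Nos2, the inducible nitric oxide synthase, went from 4, 7, 3 and 8 with vehicle to 59, 79, 45 and 37 with both agents (3.13 ± 0.276), beside 85, 97, 62 and 75 with myoglobin. Zc3h12a, an RNase that degrades inflammatory messages, rose by 1.74 ± 0.0575, Cxcl2, a neutrophil chemokine, by 1.76 ± 0.0955, Cfb, a complement factor, by 2.37 ± 0.131, Cd40, a costimulatory receptor, by 2.43 ± 0.191, and Csf1, the macrophage growth factor, by 1.12 ± 0.0447. Traf1, a signalling adaptor, was the 1 member that fell (-0.92 ± 0.14); it had 102 to 127 with vehicle, 61 to 75 with myoglobin and 44 to 70 with both agents.

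The 3 members lower in myo-dex than in myo were the chemokines Ccl20 and Cxcl10 and the growth factor Csf2. Ccl20, whose promoter is shown above, had 76, 78, 66 and 75 with vehicle, 301, 289, 311 and 278 with myoglobin, and 221, 221, 205 and 230 with both agents. The 3 groups did not overlap, with myo-dex between the others: -0.43 ± 0.0699 against myo (adjusted p = 0.00185) and 1.56 ± 0.0699 against vehicle (limma adjusted p = 4.37e-10). Csf2 had 18, 32, 21 and 40, then 97, 102, 97 and 126, then 43, 62, 58 and 56, again between the other groups (1.01 ± 0.209 against vehicle, -0.94 ± 0.209 against myo, the latter call lost under 3 of 28 alternatives, among them leaving out myo replicate 4). Cxcl10 had 33 to 41 with vehicle, 46 to 59 with myoglobin and 26 to 38 with both agents, so its myo-dex range overlapped that of vehicle (-0.24 ± 0.151, adjusted p = 0.253). The 1 member higher than with myoglobin was Il34, a ligand of the macrophage growth factor receptor, with 215 to 239, 207 to 241 and 290 to 300 in the 3 groups.

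**Figure D2:**
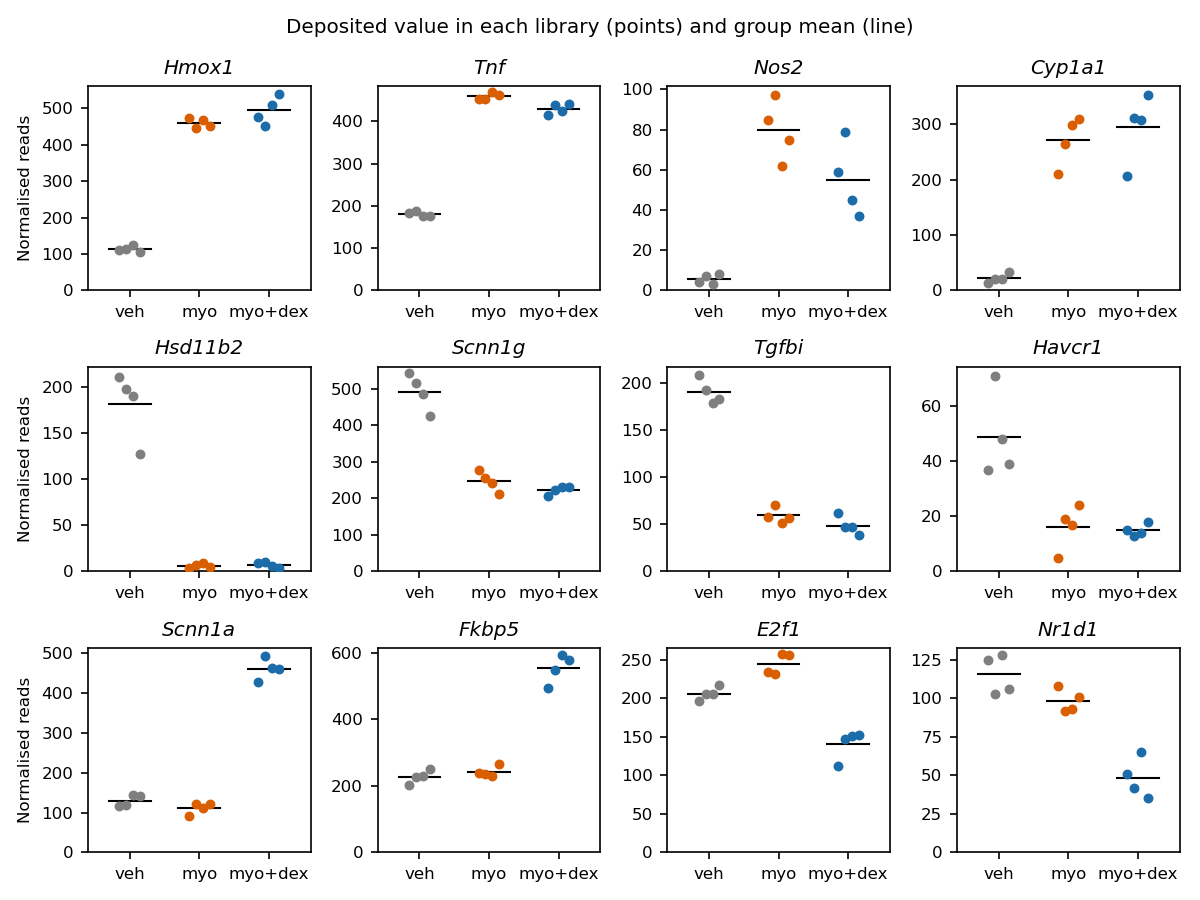
Each panel shows 1 gene, with the deposited normalised value of every library as a point and the group mean as a line (vehicle, myoglobin, myoglobin plus dexamethasone; 4 libraries each, linear axis from 0). Hmox1, Tnf and Hsd11b2 stand at similar levels in both myoglobin groups, while Scnn1a and Fkbp5 stand apart only in the group with dexamethasone.

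Genes of the integrated stress and unfolded protein responses, which adjust protein synthesis and folding capacity, were also away from vehicle with both agents. Of 40 members 31 rose and 1 fell (median 0.30); in myo against veh 23 rose and 2 fell, and in myo-dex against myo 2 were higher and 1 lower. Chac1, a glutathione-degrading enzyme induced by ATF4, had 20, 24, 31 and 22 with vehicle, 71, 96, 86 and 96 with myoglobin and 58, 83, 65 and 81 with both agents (1.53 ± 0.163 against vehicle, limma adjusted p = 5.46e-06). Asns, asparagine synthetase, rose by 0.60 ± 0.0924, the transcription factor Atf5 by 0.75 ± 0.0582, Herpud1, which serves degradation of misfolded proteins, by 0.87 ± 0.0726, and the chaperone Hspa5 by 0.31 ± 0.0839. Hspa5 was highest in replicate 4 of myo-dex, at 2262 against 1596 to 1639 in the other 3.

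The 1 member that fell was Atf3, a stress-induced repressor, with 93, 103, 84 and 91 with vehicle, 51, 53, 52 and 57 with myoglobin and 44, 53, 47 and 39 with both agents (-1.01 ± 0.116). The secreted glycoprotein Stc2 lay between the other groups, with 305 to 335, 506 to 555 and 379 to 437 (0.35 ± 0.0509 against vehicle and -0.38 ± 0.0509 against myo). Dnajb9, an endoplasmic reticulum co-chaperone, rose by 0.49 ± 0.0593 against vehicle and was 0.22 ± 0.0593 above myo, a difference that lost its call under 13 of the 28 alternatives. Sesn2, a stress-induced metabolic regulator, had 530 to 583 with vehicle, 476 to 510 with myoglobin and 524 to 575 with both agents, so that its myo-dex and vehicle values overlapped (0.02 ± 0.0445, adjusted p = 0.816).

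Cholesterol and lipid synthesis genes, which answer to the transcription factors SREBP, rose together: 28 of 32 rose and 1 fell against vehicle (median 0.35), 19 rose and 1 fell with myoglobin, and 0 of 32 passed in myo-dex against myo by limma, with 9 at an unadjusted p below 0.05. Lpin1, a phosphatidate phosphatase, rose by 0.63 ± 0.0532, Me1, malic enzyme, by 0.49 ± 0.0598 and Sc5d, a sterol desaturase, by 0.34 ± 0.0435. Abcg1, a cholesterol exporter, was the member that fell (-0.37 ± 0.12), and this call was lost under 8 of the 28 alternatives, among them leaving out myo-dex replicate 4.

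**Figure D3:**
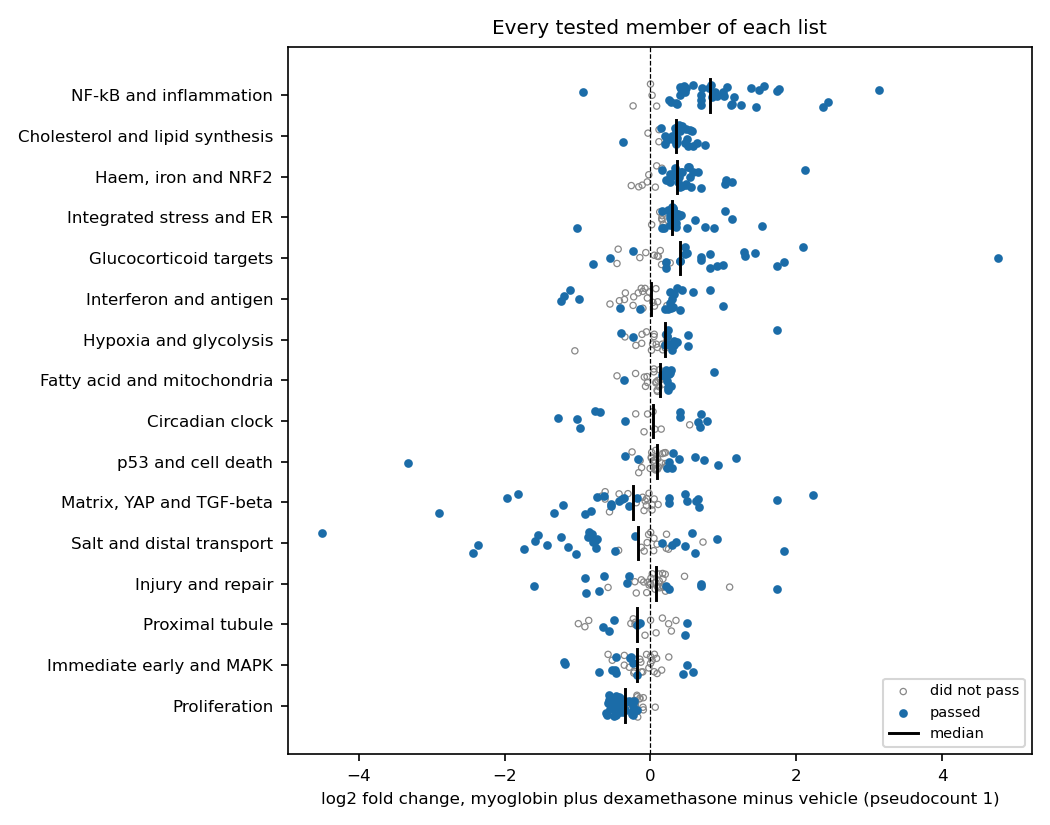
Each point is a tested list member, placed at its log2 change with myoglobin plus dexamethasone against vehicle; filled points passed (limma adjusted p below 0.05), and black lines are list medians. The NF-kB members centre on 0.81, the proliferation members on -0.35, and the distal transport members spread from -4.51 (Hsd11b2) to 1.82 (Scnn1a).

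Many genes of the distal nephron were lower than vehicle with both agents. Of 40 tested members of the salt transport and distal list 8 rose and 19 fell against vehicle (median -0.17); with myoglobin 3 rose and 21 fell, and in myo-dex against myo 8 were higher and 1 lower. Hsd11b2 (ENSMUSG00000031891, chromosome 8, 105518755 to 105523988) had 211, 198, 190 and 127 with vehicle, 4, 7, 9 and 5 with myoglobin and 9, 10, 6 and 4 with both agents. The lowest vehicle value was 127 and no library of the other groups exceeded 10, and the myo and myo-dex ranges overlapped. Its log2 change from vehicle was -4.51 ± 0.282 (limma adjusted p = 1.81e-08), which was the largest fall by the ranking used, and the myo-dex minus myo difference was 0.17 ± 0.282 (adjusted p = 0.761). Aqp2, the vasopressin-regulated water channel, had 35, 41, 28 and 16, then 7, 3, 2 and 5, then 3, 3, 8 and 5 (-2.44 ± 0.384). Trpv5, a calcium channel, fell by 2.37 ± 0.303, and Slc12a3, the thiazide-sensitive sodium chloride cotransporter, by 0.74 ± 0.167. Slc12a3 had 1163, 1115, 1130 and 767 with vehicle and 625, 722, 760 and 424 with both agents.

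The 3 subunits of the epithelial sodium channel went different ways. Scnn1a, the alpha subunit, had 117, 118, 143 and 142 with vehicle, 91, 121, 112 and 122 with myoglobin and 428, 493, 462 and 461 with both agents. The vehicle and myo values overlapped and the lowest myo-dex value, 428, stood against 143 as the highest of them (1.82 ± 0.0973 against vehicle, limma adjusted p = 3.18e-09). Scnn1b, the beta subunit, had 887 to 1008, 516 to 597 and 539 to 598 in the 3 groups (-0.75 ± 0.0532 against vehicle, 0.01 ± 0.0532 against myo). Scnn1g, the gamma subunit, had 426 to 542, 211 to 277 and 206 to 231 (-1.14 ± 0.0836 and -0.14 ± 0.0836). Nr3c2, the mineralocorticoid receptor, had 169 to 247 with vehicle, 119 to 132 with myoglobin and 102 to 114 with both agents (-0.78 ± 0.104).

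Foxi1 and Rhcg, 2 genes of the intercalated cell, the acid-base cell of the collecting duct, lay between the other groups at low values. They were singled out after their values were seen. Other genes of that cell in the list are not described here, so these 2 do not speak for the cell type. Foxi1, its transcription factor, had 39, 53, 45 and 32 with vehicle, 6, 6, 8 and 6 with myoglobin and 22, 12, 14 and 9 with both agents (0.97 ± 0.255 against myo, adjusted p = 0.0326; -1.55 ± 0.255 against vehicle). Rhcg, an ammonia channel, had 31 to 44, 2 to 7 and 9 to 11 (1.06 ± 0.285 against myo, adjusted p = 0.0356; -1.73 ± 0.285 against vehicle). Both differences from myo lost their call under 10 and 15 of the 27 alternatives that tested them. Calb1, a calcium buffer of the distal tubule, rose by 0.61 ± 0.0791, and the transcription factor Tfcp2l1 by 0.47 ± 0.0577. Cldn19, a tight junction protein, fell by 1.58 ± 0.119 against vehicle and was the member lower than with myoglobin (-0.48 ± 0.119), a call lost under 6 of the 28 alternatives.

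Of 21 tested proximal tubule genes 2 rose and 5 fell (median -0.18), 33.3% beside 28.6% of all tested genes. Lrp2, the endocytic receptor megalin, had 216 to 264 with vehicle, 351 to 456 with myoglobin and 288 to 374 with both agents (0.50 ± 0.1), and Slc5a1, a glucose transporter, rose by 0.47 ± 0.0592. Dab2, an endocytic adaptor, fell by 0.50 ± 0.106, and Cdh6, an epithelial cadherin, by 0.56 ± 0.158, a call lost under 3 of 28 alternatives, among them leaving out vehicle replicate 3. Napsa, an aspartic protease, had 267 to 313, 179 to 195 and 247 to 271, nearer vehicle with both agents than with myoglobin (-0.18 ± 0.06 against vehicle, a call lost under 9 of 28 alternatives, and 0.45 ± 0.06 against myo). Keg1, a kidney-expressed gene, had 20 to 29, 12 to 21 and 22 to 39.

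Of 38 markers of tubular injury 5 rose and 7 fell (median 0.07), and 4 rose and 12 fell without myo-dex replicate 4. The share that passed, 31.6%, was near the 28.6% of all tested genes, so the count says nothing particular of these markers. Lcn2, a secreted iron-trapping protein, had 951, 928, 927 and 924 with vehicle, 1253, 1299, 1271 and 1224 with myoglobin and 1460, 1395, 1314 and 1947 with both agents. The 3 groups did not overlap and replicate 4 was highest (0.70 ± 0.0859, limma adjusted p = 2.49e-05). Havcr1, kidney injury molecule 1, had 37, 71, 48 and 39, then 5, 19, 17 and 24, then 15, 13, 14 and 18, a fall of 1.60 ± 0.355. Vcam1, an adhesion molecule, rose by 0.69 ± 0.0504. Krt20, a keratin of injured tubules, had 18, 30, 36 and 50 with vehicle, 7, 21, 23 and 29 with myoglobin and 37, 95, 66 and 91 with both agents; it passed against myo (1.87 ± 0.398, adjusted p = 0.0103) and missed against vehicle (1.08 ± 0.398, adjusted p = 0.0534). Fga, a fibrinogen chain, had 19 to 34, 12 to 25 and 35 to 42 and likewise passed only against myo (1.21 ± 0.225).

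Of 42 matrix, TGF-beta and YAP genes 9 rose and 16 fell (median -0.24), 59.5% beside 28.6% of all tested genes. Tgfbi, a TGF-beta induced matrix protein, had 209, 193, 179 and 183 with vehicle, 58, 71, 52 and 57 with myoglobin and 62, 47, 47 and 39 with both agents (-1.97 ± 0.134, limma adjusted p = 4.49e-08). Tnc, tenascin C, had 103, 132, 106 and 104, then 18, 22, 25 and 42, then 13, 18, 18 and 9 (-2.90 ± 0.248). Some members were lower with dexamethasone than with myoglobin: Ccn1, a YAP target, had 253 to 302, 209 to 295 and 130 to 172 (-0.76 ± 0.103 against myo), and Timp3, a protease inhibitor, had 469 to 500, 276 to 352 and 169 to 240 (-0.73 ± 0.0959). Fn1, fibronectin, fell by 0.82 ± 0.155 and Thbs1, thrombospondin 1, by 0.73 ± 0.0636. The summed stroma markers given above, of which Rgs5 was the largest part, were lower in the same order of groups. Against vehicle 0 of 9 tested stroma markers rose and 5 fell, among them Rgs5 of pericytes and Pdgfra of fibroblasts. In myo against veh 0 rose and 2 fell. The part of stroma in these matrix values was not tested. Among the rises, Itga2, an integrin, had a change of 0.66 ± 0.0507.

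Immediate early and MAP kinase genes gave 3 rises and 11 falls among 37 (median -0.19), in myo against veh 4 and 10, and 0 passed in myo-dex against myo by limma, with 7 at an unadjusted p below 0.05. Against vehicle 37.8% of members passed, beside 28.6% of all tested genes. Egr1, an early growth response factor, had 369, 397, 336 and 445 with vehicle, 165, 189, 207 and 217 with myoglobin and 152, 183, 169 and 179 with both agents (-1.17 ± 0.096). Jun fell by 0.53 ± 0.0433 and Hbegf, an EGF receptor ligand, by 0.71 ± 0.128, while Ier3, an early response gene, rose by 0.59 ± 0.0741. The interferon and antigen list gave 14 rises and 6 falls among 38 (median 0.01), 52.6% beside the 28.6% of all tested genes. In myo against veh it gave 13 and 6. Cd74, the invariant chain, had 164 to 212, 373 to 402 and 360 to 394 (0.99 ± 0.0677), whereas Ifit2, an interferon-induced RNA-binding protein, had 157 to 186, 103 to 140 and 55 to 80, lower with both agents than with myoglobin (-1.23 ± 0.125 against vehicle, -0.71 ± 0.125 against myo).

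Glucocorticoid targets moved away from vehicle: of 34 members 20 rose and 3 fell (median 0.40), against 6 and 5 in myo against veh and 16 and 1 in myo-dex against myo. Members that passed against vehicle made up 67.65%, beside 28.6% of all tested genes. Nfkbia, Tnfaip3 and Lcn2, also in the NF-kB list, rose in myo against veh too (0.81 ± 0.0621, 0.90 ± 0.0573 and 0.44 ± 0.0859). They did not pass in myo-dex against myo. Fkbp5, a co-chaperone that restrains the receptor (ENSMUSG00000024222, chromosome 17, 28399094 to 28517527), had 202, 227, 229 and 251 with vehicle, 238, 237, 230 and 265 with myoglobin and 493, 548, 595 and 579 with both agents. The vehicle and myo ranges overlapped and all 4 myo-dex libraries lay above them (1.28 ± 0.0728, limma adjusted p = 5.85e-09). Sgk1, a kinase that promotes sodium channel activity, had 36, 64, 85 and 66, then 61, 62, 77 and 82, then 241, 270, 275 and 252 (2.09 ± 0.191). Zbtb16, a transcription factor, had values of 1, 0, 0 and 0 with vehicle, 1, 1, 0 and 0 with myoglobin and 29, 29, 44 and 26 with both agents. Sult1a1, a sulfotransferase, rose by 1.43 ± 0.102, Hif3a, a hypoxia-inducible factor subunit, by 1.73 ± 0.255, Klf15, a metabolic transcription factor, by 0.82 ± 0.0979 and Tsc22d3, the leucine zipper GILZ, by 0.81 ± 0.0717.

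Cebpd, a transcription factor of the acute phase, was high in both myoglobin groups (133 to 166, 338 to 359 and 336 to 408; 1.29 ± 0.0723). The falls included Irs2, an insulin receptor substrate, and the receptor gene itself. Irs2 was low in both myoglobin groups, with 795 to 847, 531 to 601 and 538 to 579 in the 3 groups. It changed by -0.55 ± 0.0451 against vehicle and did not pass against myo (-0.05 ± 0.0451). Nr3c1 had 398, 397, 369 and 388 with vehicle, 381, 380, 405 and 392 with myoglobin and 300, 339, 356 and 317 with both agents. Its vehicle and myo values overlapped and all myo-dex values were below both (-0.24 ± 0.0536 against vehicle, limma adjusted p = 0.00326).

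Clock genes split. Of 19 members 6 rose and 6 fell (median 0.03), 63.2% beside 28.6% of all tested genes, and in myo-dex against myo 6 were higher and 4 lower. The repressors Per1 and Per2 and Cry1 rose by 0.70 ± 0.0653, 0.68 ± 0.0473 and 0.65 ± 0.0728, and Arntl, the partner of CLOCK, by 0.40 ± 0.0632. Per1 had 268 to 324, 280 to 307 and 449 to 505 in the 3 groups. Nr1d1, the nuclear receptor REV-ERB alpha, had 125, 103, 128 and 106, then 108, 92, 93 and 101, then 51, 42, 65 and 35 (-1.27 ± 0.155), and its relative Nr1d2 fell by 1.01 ± 0.108, Dbp, an output factor, by 0.97 ± 0.099 and Per3 by 0.69 ± 0.0882. RNA was taken at 1 time, 12 h, so a change of level and a shift of phase cannot be told apart.

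Cell cycle genes fell below vehicle and below myoglobin. Of 50 members 0 rose and 34 fell against vehicle (median -0.35), 0 rose and 0 fell in myo against veh by limma (3 at an unadjusted p below 0.05), and 0 were higher and 29 lower in myo-dex against myo; without myo-dex replicate 4, 44 fell against vehicle. E2f1, a driver of S phase entry, had 197, 205, 205 and 217 with vehicle, 234, 232, 258 and 256 with myoglobin and 112, 147, 151 and 153 with both agents. The 3 groups did not overlap, with myo-dex lowest (-0.56 ± 0.0887 against vehicle, limma adjusted p = 0.00026). Ccne2, cyclin E2, fell by 0.61 ± 0.0926, and the DNA polymerase genes Pole and Pola1 by 0.59 ± 0.0751 and 0.41 ± 0.0593. Mki67, a marker of cycling cells, had 1675 to 1993, 1710 to 1971 and 1350 to 1755, a smaller fall whose ranges overlapped (-0.24 ± 0.078, limma adjusted p = 0.029) and which lost its call under 8 of 28 alternatives.

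The remaining lists are given more briefly. Of 31 fatty acid and mitochondrial genes 11 rose and 1 fell (median 0.12), 38.7% beside the 28.6% of all tested genes. Vnn1, a pantetheinase, rose by 0.88 ± 0.108, and Cpt1a, the gate of mitochondrial fatty acid import, had 591 to 611, 409 to 433 and 452 to 477 (-0.36 ± 0.0368). Of 33 hypoxia and glycolysis genes 12 rose and 2 fell (median 0.19), 42.4% beside that 28.6%, with Hk2, hexokinase 2, at 0.51 ± 0.067 and Ndrg1 at -0.41 ± 0.0584. Of 38 p53 and cell death genes 9 rose and 3 fell (median 0.09). The share that passed, 31.6%, was near the 28.6% of all tested genes, so this count says nothing particular of the list. Fas, the death receptor, had 45 to 56, 111 to 154 and 90 to 131 (1.18 ± 0.133), and the inflammatory caspase Casp4 rose by 0.73 ± 0.0763.

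The largest rises among genes with a mean of at least 30 in the higher group were, after Zbtb16, those of Fyb, Cyp1a1, Serpina3f, Ptprv, Slc6a14, Igsf6 and Nos2. Fyb, an adaptor best known from T cells, had 6, 10, 10 and 9 with vehicle, 150, 130, 112 and 112 with myoglobin and 219, 178, 161 and 107 with both agents (4.08 ± 0.202). Cyp1a1, the cytochrome P450 induced through the aryl hydrocarbon receptor, had 14, 21, 21 and 33, then 210, 265, 298 and 310, then 207, 312, 308 and 352 (3.70 ± 0.211). Serpina3f, Ptprv, Slc6a14 and Igsf6 rose by 3.68 ± 0.244, 3.64 ± 0.241, 3.42 ± 0.246 and 3.32 ± 0.214. In all of these but Zbtb16 the myo and myo-dex ranges overlapped.

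The largest falls after Hsd11b2 were those of Gsdmc2, Gsdmc3, Tnc, Frmpd3, Adh6a, Aqp2 and Cyp26b1. Gsdmc2, of the pore-forming gasdermin family, had 164, 127, 149 and 91 with vehicle, 26, 27, 35 and 27 with myoglobin and 23, 19, 11 and 4 with both agents (-3.33 ± 0.364), and Gsdmc3 fell by 3.15 ± 0.313; as close relatives they may share reads, so their values are uncertain. Adh6a, an alcohol dehydrogenase, and Cyp26b1, which breaks down retinoic acid, fell by 2.61 ± 0.261 and 2.39 ± 0.229.

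**Figure D4:**
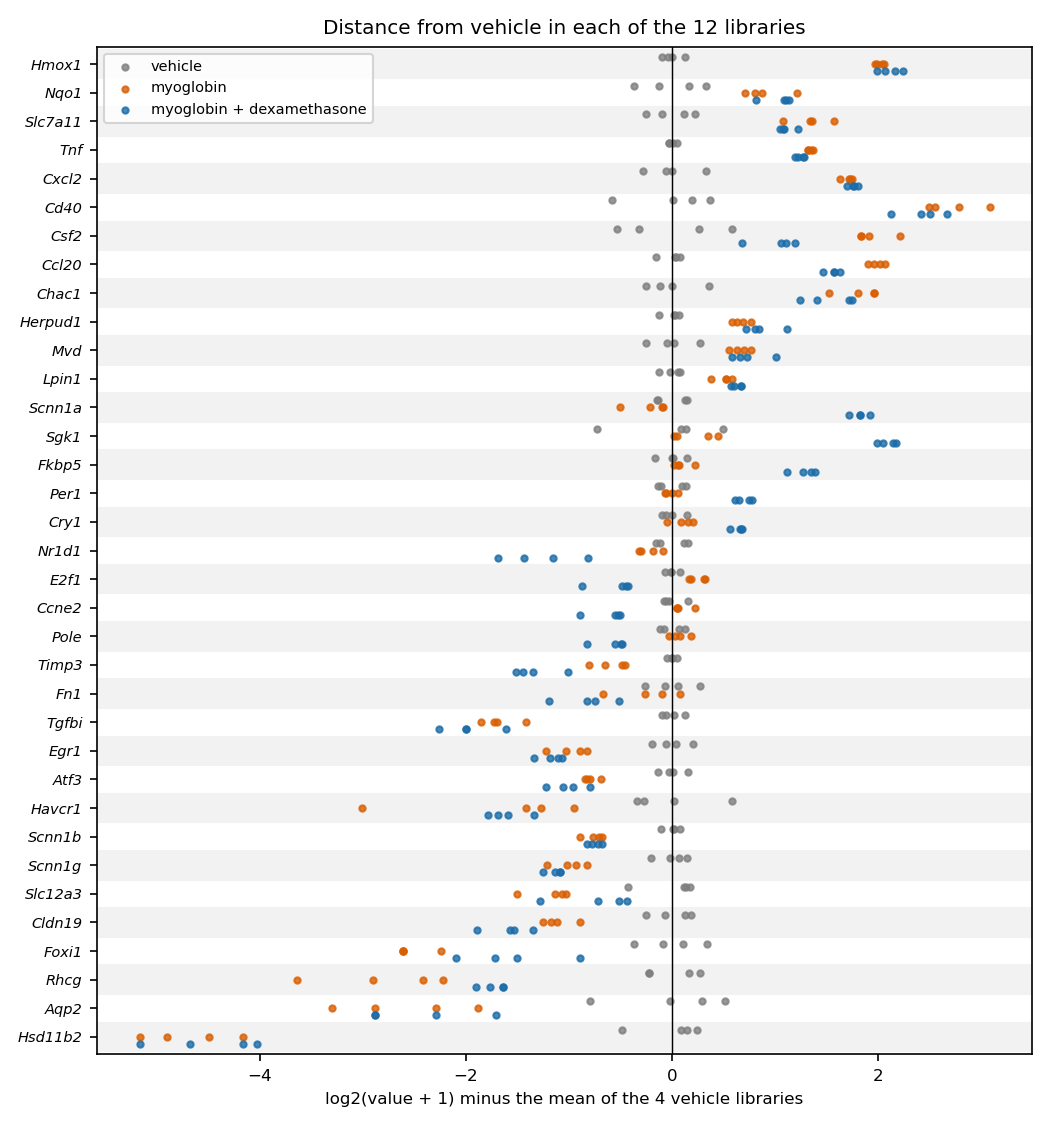
Each point is 1 gene (rows) in 1 library, placed along the horizontal axis at log2 of the value plus 1, minus the mean of the 4 vehicle libraries; colours mark the 3 groups. Hmox1, Tnf and Hsd11b2 keep the same sign in both myoglobin groups, while Fkbp5 and Scnn1a depart from vehicle in the myo-dex libraries.

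A few genes that differed from vehicle with myoglobin were near it with both agents. They were picked for a myo-dex minus vehicle difference under 0.1, so their nearness is a description without a test. Abat, a GABA transaminase, had 298, 253, 259 and 242 with vehicle, 173, 153, 184 and 165 with myoglobin and 257, 268, 268 and 206 with both agents. Nrg4, a growth factor of the EGF family, had 40 to 48, 18 to 27 and 35 to 48, and Fn3k, a deglycating kinase, 30 to 38, 12 to 26 and 25 to 42. In the other direction, Mgat4c, a glycosyltransferase, had 111 to 178, 214 to 250 and 143 to 169, Xylt1, a xylosyltransferase, 46 to 58, 73 to 109 and 44 to 72, and St3gal5, a ganglioside synthase, 20 to 29, 33 to 43 and 18 to 26.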

How the data were processed

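Messenger RNA of mouse tubuloids was sequenced from 12 libraries, prepared with a stranded kit per the labels' protocols. Per the submitters' processing notes, which give no roles, the tools were DESeq2 1.36.0, featureCounts 2.0.3, STAR 2.7.10a, Trimmomatic 0.39 and Picard 2.27.4, and the build mm10. The deposited values are a score: rounded read numbers of each gene after scaling by a library size factor, as the steps between a library's values show, so tests of counts were not used. Estimated reads per library (3.25 to 5.92 M) are the deposited sums times the size factor read from those steps.

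Tests used limma-trend (limma 3.58.1, R 4.3.3) on log2(value + 1), with the 3 groups in 1 fit over 12 libraries, so that a fold change is on that scale and understates changes of low genes. A gene needed values of 10 or more in 4 or more libraries to be tested (14558 genes). Two-sided p-values were adjusted by Benjamini-Hochberg over all tested genes of a comparison, with calls at an adjusted p below 0.05. Changes are log2 ± SE and group values mean ± SD. The fit was tested on simulated data. Of the genes, 20592 (98.91%) had the same coordinates in GENCODE M21. Promoters came from the RefSeq table, where 16 of 22 genes always named had an entry.

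The lists, the members and the rule for named genes were chosen with earlier results of these data known. The rule takes 22 genes in any case, the 8 largest rises and falls, the 3 members per list and direction with the smallest p, and 6 genes near vehicle. Of 135 genes examined by name, 35 were added after their values were seen, 20 of them because 5 or fewer members of a list passed in 1 direction between myo-dex and myo, and 15 singled out by hand (Cxcl2, Cd40, Cfb, Asns, Hspa5, Slc12a3, Trpv5, Foxi1, Rhcg, Klf15, Sult1a1, Fn1, Thbs1, Mki67 and Arntl). Same-numbered veh and myo libraries deviated together (all 4 correlations above 0.1), which the labels do not account for, and the sets with myo-dex did not in number 3; the block was an alternative only. Alternatives, 28 in all, covered the pseudocount, the filter, 4 scalings, array weights, the libraries in the fit, a replicate block, the trend and leaving out libraries. A few genes that the rule names are not reported here.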

Additional observations from a re-analysis of the deposited data

Results flagged for a closer look

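In 30 of 405 groups of 4 libraries checked over the named genes, 1 library was flagged by Dixon's test at the 95% level. That test weighs a gap against the range of the group, and chance alone flags about 5% of groups where values are not rounded. The values here are rounded, so a small gap can be flagged, as for Slc5a1 at 555 beside 551 in myo-dex. No cause was tested for any flagged group. In myo-dex replicate 4, the library with the fewest reads, 5 genes were high: Atf5 at 770, Ier3 at 749, Acadl at 776, Acsl4 at 2056 and Hspa5 at 2262. In myo-dex replicate 1, Il34 was high at 300 and E2f1 and Ccne2 were low at 112 and 91. In myo-dex replicate 3, Zbtb16 was high at 44 and Slc5a1 at 555.

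In vehicle replicate 1, Zbtb16 was high at 1, Lcn2 at 951, Slc6a14 at 23 and Sesn1 at 430, and Cfb was low at 14. In vehicle replicate 2, Nr3c2 was high at 247 and Tnc at 132, and Hspa5 was low at 1392. In vehicle replicate 4, Pola1 was high at 586, and Jun and Slc12a3 were low at 527 and 767. In myo replicate 1, Igsf6 was high at 56. In myo replicate 3, Gsdmc2 was high at 35, Gclm at 1056, Ccne2 at 199 and Foxi1 at 8, and Cebpd was low at 338. In myo replicate 4, Irs2, Egln3 and Mxi1 were low at 531, 631 and 203.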

How the results depend on the processing

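Of 121 named genes that passed between myo-dex and vehicle, 109 passed under every alternative that tested them and 12 lost the call under at least 1 (Abcg1, Cat, Ccn2, Cdh6, Fos, Havcr1, Hspa5, Maff, Mki67, Mxi1, Napsa and Sesn1). Of 59 that passed between myo-dex and myo, 32 lost the call under at least 1, Dbp under 16, Dnajb9 under 13 and Fn1 under 10. The count at 2-fold or more went from 493 to 245 with a pseudocount of 10, to 772 without the filter and to 247 with a mean of at least 30. Array weights gave 4314 genes for myo against veh and 1625 for myo-dex against myo, and fitting only the 2 groups compared gave 639 for the latter. Leaving out libraries gave 2432 to 4225 genes for myo-dex against veh (1172 to 2137 higher, 1260 to 2126 lower, 443 to 510 at 2-fold or more), 1409 to 3794 for myo against veh and 315 to 1284 for myo-dex against myo. The first count fell by over 1.5 times without all libraries numbered 2 (2432) or 3 (2660), as did myo against veh (1470 and 1409). Myo-dex against myo fell so without myo replicate 2 (617), without myo replicate 4 (551) and without all libraries numbered 1 (636), 2 (319) or 3 (315). The causes were not tested.

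With the replicate number as a block, 5272 genes passed for myo-dex against veh, 3503 for myo against veh and 1788 for myo-dex against myo. Numbers were taken to pair 2 groups where every same-numbered pair correlated above 0.1 in its deviations from the group means. Veh and myo met this (0.628, 0.1339, 0.2083 and 0.5511, each library correlating best with its own number). The sets with myo-dex missed it in number 3 alone: 0.4373, 0.1835, 0.0086 and 0.3019 with veh, and 0.5606, 0.1576, 0.0075 and 0.2542 with myo. With the block Krt20 also passed against vehicle, and the injury list gave 8 rises and 11 falls.

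The log2 differences from vehicle that changed sign all belong to genes that did not pass. Array weights gave Abat 0.0206, Fn3k 0.057 and St3gal5 0.0683. Sesn2 had -0.0301 with equal totals, -0.0192 with median-ratio scaling and -0.0093 with upper-quartile scaling. Quantile normalization gave Sesn2 -0.0255, Sox9 -0.0291, St3gal5 0.0869, Nrg4 0.1104 and Fn3k 0.1321. Leaving out libraries gave -0.1317 to 0.0114 for Abat, -0.1619 to 0.0813 for Fn3k, -0.066 to 0.1597 for Mgat4c, -0.1544 to 0.0152 for Nrg4, -0.0077 to 0.0447 for Sesn2, -0.0055 to 0.1153 for Sox9, -0.2144 to 0.1037 for St3gal5 and -0.0735 to 0.2059 for Xylt1.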
